A study of Homo sapiens with 12 samples.

Results

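The core machinery that builds autophagosomes was followed in Huh7 cells after knockdown of FAM111B. It comprised 42 genes, chosen by symbol from the 60666 genes listed for these cells, and each of the 42 was found once. They were taken in the order of their work, as 5 genes of the ULK1 initiation complex, 7 of the class III PI3-kinase complex and its regulators, 8 PI3P readers, lipid transfer and membrane supply genes, 10 conjugation enzymes and ATG4 proteases, 6 genes of the ATG8 family, and 6 fusion factors and accessory proteins. Of the 42 genes, 41 passed the filter on low values (1 TPM or more in 3 or more of the 6 libraries). ULK2 did not pass it, with 0.55, 0.06 and 0.08 TPM in control libraries and 0.08, 0.01 and 0.02 TPM in shFAM111B libraries.

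Huh7 is an established human hepatocellular carcinoma (HCC) line, grown here in high-glucose medium with serum. RNA was sequenced from 3 libraries of control cells and 3 of shFAM111B cells, which carried a lentiviral short hairpin RNA (shRNA) against FAM111B. The study kept transduced HCC cells under puromycin, and gave the purpose of the sequencing as a search for genes that change once FAM111B is silenced. Whether the replicates came from separate infections, cultures or clones is not given in the sources used here, so the p-values measure only the spread between these libraries. FAM111B itself had 7.84, 8.29 and 7.99 TPM in control libraries and 0.96, 1.13 and 0.84 TPM in shFAM111B libraries, a log2 fold change of -2.20 (SE 0.113, limma adjusted p = 6.09e-06). Of 8 liver and hepatoma markers, all passed the filter, and 4 were called higher and 4 lower. Their summed level was 22182 to 22362 TPM in control and 37706 to 42644 TPM in shFAM111B libraries, carried by AFP (mean 7274 and 23062 TPM) and APOA1 (3233 and 7010 TPM), while ALB (log2 fold change -0.63), APOB (-2.27), HNF4A (-1.25) and SERPINA1 (-0.29) were called lower by limma. Under the 5 other scalings given below, SERPINA1 was called higher in 3 and lower in 2. The lower call held in 4 for ALB and in all 5 for APOB and HNF4A. Of 6 leukocyte, fibroblast and endothelial markers only CD68 and PECAM1 passed, the 6 summed to 18.1 to 22.0 TPM in control and 25.6 to 27.2 TPM in shFAM111B libraries, and CDH5 was at 0 in 5 libraries. CD68, a lysosomal membrane protein that macrophages make in large amounts, had a log2 fold change of 0.45 (SE 0.0785, limma adjusted p = 0.0016), and its part in the results was not tested. The libraries also differed in composition. Genes of the mitochondrial chromosome took 196140 to 201464 TPM in control and 73237 to 78883 TPM in shFAM111B libraries, and ribosomal and other short non-coding RNAs took 1645 to 4833 TPM in control libraries and 46622, 68689 and 5007 TPM in shFAM111B replicates 1 to 3.

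Macroautophagy begins when the ULK1 kinase complex, built on the scaffold RB1CC1 (FIP200), is switched on by starvation or stress. It activates the lipid kinase PIK3C3 (VPS34), which marks a patch of endoplasmic reticulum with the lipid PI3P, and WIPI proteins read this mark while ATG9A vesicles and ATG2 proteins bring in membrane lipid. A pair of ubiquitin-like conjugation reactions then joins ATG12 to ATG5 and joins the ATG8 proteins (the LC3 and GABARAP families) to the lipid phosphatidylethanolamine, so that they coat the growing membrane and bind cargo receptors. The closed autophagosome finally fuses with lysosomes through STX17 and its partners. Liver cells use this pathway in the turnover of mitochondria, lipid droplets and protein aggregates.

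The ATG8 proteins are all made as precursors that ATG4 proteases cut behind a glycine, and this glycine is the residue coupled to lipid. The last 30 coding bases of each ATG8 gene (GENCODE 29, GRCh38), with the codon of that glycine in capitals and the stop codon at the end, are shown because they hold this feature of the family. The stretch is the same in MAP1LC3B and MAP1LC3B2 and differs among the other members.
MAP1LC3A, chr20:34559869-34559898, plus strand: tacgcctcccaggaaaccttcGGCttctga
MAP1LC3B, chr16:87403068-87403097, plus strand: gagacgttcGGGatgaaattgtcagtgtaa
MAP1LC3B2, chr12:116576291-116576320, plus strand: gagacgttcGGGatgaaattgtcagtgtaa
GABARAP, chr17:7240854-7240883, minus strand: tacagtgacgaaagtgtctacGGTctgtga
GABARAPL1, chr12:10221823-10221852, plus strand: tacagtgatgagagtgtctatGGGaaatga
GABARAPL2, chr16:75577340-75577369, plus strand: tacagcggagagaacacttttGGCttctga
The glycine is codon 120 in the 3 LC3 genes and codon 116 in the 3 GABARAP genes, as counted in the coding sequences. Between it and the stop codon lie 5 codons in MAP1LC3B and MAP1LC3B2 and 1 codon in the other members. The coding sequences of MAP1LC3B and MAP1LC3B2 differed at 2 of 378 positions (99.5% identity), so reads may be split between this pair and the values of both are uncertain. GABARAP shared 76.8% of aligned positions with GABARAPL1, 64.3% with GABARAPL2 and 50.7% with MAP1LC3B.

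Across the whole machinery, on the deposited TPM scale, transcripts of most genes fell in shFAM111B cells while GABARAP rose. Values are TPM (a relative transcript abundance corrected for transcript length), always given in the order of replicates 1, 2 and 3, and fold changes are shFAM111B minus control on log2(TPM + 1), with the standard error (SE) and the Benjamini-Hochberg adjusted p of limma's moderated test over 14394 tested genes. Of the 41 tested members, 28 (68.3%) were lower and 3 (7.32%) were higher at an adjusted p under 0.05, against 50.9% lower and 21.1% higher among all tested genes, and 10 were not called. At a fold change of at least 2 with P under 0.05, the thresholds of the study, 11 members (26.8%) were lower and 1 was higher, against 23.7% and 6.82% of all tested genes. The thresholds were applied here to the limma fit on log2(TPM + 1). In its own Huh7 comparison the study reported slightly more upregulated than downregulated genes at them, so its counts do not share this excess of lower genes. The 3 libraries of each group did not overlap for 31 members (75.6%) and for 75.2% of all tested genes, with 29 of these members lower and 2 higher beside 52.8% and 22.5% of all tested genes. The median member changed by -0.56 and the median tested gene by -0.36, and 25 of the 41 members lay below that median gene. As these are bulk samples, a change in the cells present and a change in RNA per cell cannot be told apart.

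The split between falls and rises depended on how the libraries were scaled. Median-of-ratios and upper-quartile scaling each gave 16 lower and 11 higher members, where 35.2% and 36.4% of all tested genes were lower and 35.8% and 34.3% higher. Quantile normalisation gave 18 and 9 members, beside 36.8% and 32.5% of all tested genes, and subtraction of each library's median gave 11 and 14, beside 29.4% and 41.6%. Rescaling the TPM without mitochondrial-chromosome and short non-coding RNA genes gave 30 lower and 2 higher members, beside 55.2% and 18.0%. Under every one of these 5 scalings 11 members were called lower, namely ATG13, ATG14, UVRAG, NRBF2, WDR45B, ATG2B, ATG9A, STX17, DRAM1, EI24 and DEPP1, and 2 were called higher, GABARAP and ATG101. The share of all tested genes called under every scaling was not counted, so these counts are descriptions only. Of the 11, ATG2B passed the filter only through its control libraries. ATG5, MAP1LC3B and GABARAPL2, which were lower on the deposited scale, were called higher under 1 scaling. The lower calls of ULK1, AMBRA1, VMP1, ATG4A, ATG4C, ATG5, ATG7, GABARAPL2 and TECPR1 were kept under only 1 of the 5 scalings, and those of BECN1, ATG4B and MAP1LC3B under 2. Of the 10 members not called on the deposited scale, PIK3C3, WIPI1, ATG2A, ATG3, ATG4D and MAP1LC3B2 were called higher under 4 scalings, and WDR45 and GABARAPL1 were called higher under 3 and lower under 1. Fold changes also moved with transcript length. The median log2 fold change of tested genes was 0.17 for longest transcripts of over 1000 and up to 2000 nt, -0.31 up to 4000 nt and -0.78 up to 8000 nt, and the 6, 15 and 16 members in these classes had medians of 0.24, -0.56 and -0.66. With the trend over length and expression removed, 10 members were lower and 9 higher, where 4994 and 4138 of 14263 tested genes were, and the part of length in each result was not tested further. This fit, named below as removal of the length trend, took out length and expression together, so their parts cannot be told apart. Of the 11 members lower under every scaling, 9 stayed lower in it, while ATG9A and ATG2B were not called.

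**Figure D1:**
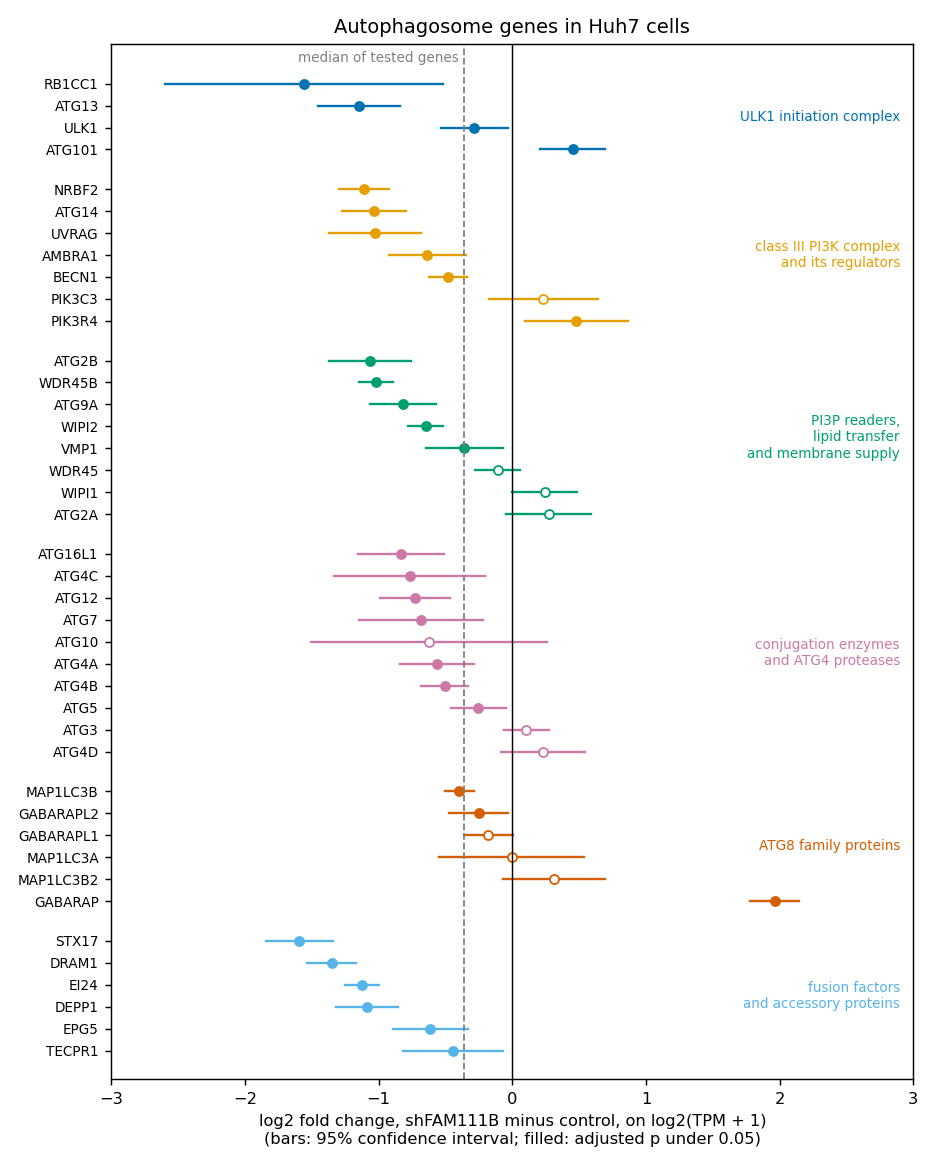
Log2 fold change of the 41 tested autophagosome genes (x axis, shFAM111B minus control on log2(TPM + 1)) by gene (y axis, coloured by stage), with bars for the 95% confidence interval, filled points for an adjusted p under 0.05 and a dashed line at the median tested gene, -0.36. GABARAP stands alone at 1.96, while the 6 fusion factors and accessory proteins all lie left of the dashed line, from -1.60 to -0.44.

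Within the ATG8 family, members moved in different directions. GABARAP, the founding member of its subfamily, rose 3.91-fold in mean TPM, while the ratios of the other 5 genes lay between 0.756 and 1.45. GABARAP (ENSG00000170296, chromosome 17 from 7240014 to 7242770 on the minus strand of GRCh38) had 191, 219.8 and 212 TPM in control libraries and 819, 744 and 872 TPM in shFAM111B libraries. The groups lay far apart, with the lowest shFAM111B library at 744 TPM and the highest control library at 219.8 TPM. The log2 fold change was 1.96 (SE 0.0772, limma adjusted p = 3.08e-06), with a 95% confidence interval of 1.78 to 2.15. It ranged over 1.65 to 2.50 across the 5 scalings, was 1.65 with the length trend removed, and lay between 1.90 and 2.02 when each library was left out in turn. GABARAP shares 691 exon bases with the gene AC120057.2 on the same strand, which had mean levels of 0.643 TPM in control and 1.48 TPM in shFAM111B cells.

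MAP1LC3B, the LC3 form used most widely as an autophagosome marker, moved the other way, with 108, 105 and 110.0 TPM in control libraries and 82.8, 82.0 and 79.4 TPM in shFAM111B libraries. The groups did not overlap, and its log2 fold change of -0.40 (SE 0.0457, limma adjusted p = 0.00019) was close to that of the median tested gene. This direction flipped with the scaling, over -0.53 to 0.13. GABARAPL2 (GATE-16), which acts late in autophagosome maturation, went from 66.7, 68.7 and 65.7 TPM to 49.0, 56.5 and 63.7 TPM, with shFAM111B replicate 3 close to the control libraries. Its log2 fold change was -0.25 (SE 0.0936, limma adjusted p = 0.0439), and the call was lost without any single library except shFAM111B replicate 3, with an adjusted p of 0.0948, 0.115 and 0.081 without control replicates 1 to 3 and 0.103 and 0.0818 without shFAM111B replicates 1 and 2 (limma). GABARAPL1 had 48.8, 44.4 and 40.9 TPM in control and 37.7, 39.3 and 40.8 TPM in shFAM111B libraries. The groups of GABARAPL1 lay side by side without overlap, yet its log2 fold change of -0.18 (SE 0.0763, limma adjusted p = 0.0698) did not pass, and without control replicate 3 it did (limma adjusted p = 0.0272). Under 4 of the 5 scalings the fold change of GABARAPL1 was positive, up to 0.35, and GABARAPL2 was positive under 3 of them, up to 0.28.

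The remaining LC3 genes were barely transcribed. MAP1LC3A had 0.72, 1.55 and 1.29 TPM in control and 0.77, 1.03 and 1.76 TPM in shFAM111B libraries, with overlapping groups and a log2 fold change of -0.0061 (SE 0.23, limma adjusted p = 0.983) whose 95% confidence interval was -0.55 to 0.54. MAP1LC3B2, the near copy of MAP1LC3B, had 1.29, 1.31 and 0.96 TPM in control and 1.29, 1.96 and 1.91 TPM in shFAM111B libraries and did not pass either, at 0.31 (SE 0.161, limma adjusted p = 0.124). Under 4 of the 5 scalings MAP1LC3B2 was called higher, at 0.55 to 0.84 (limma adjusted p = 0.00274 to 0.0203), and with the length trend removed it was -0.12 and not called. MAP1LC3C, a further paralog outside the 42 genes, stayed at or below 0.10 TPM in every library. On the per-length TPM scale, the level order in control cells was GABARAP, MAP1LC3B, GABARAPL2, GABARAPL1 and then both low LC3 genes, whose values overlapped. The same order held in shFAM111B cells, where MAP1LC3A and MAP1LC3B2 overlapped too, and in each group the 4 upper genes did not overlap with their neighbours. The summed level of the 6 genes went from 429 ± 12.1 to 992 ± 67.1 TPM (SD, n = 3), and without GABARAP from 222 ± 3.62 to 180.0 ± 7.94 TPM (SD, n = 3). GABARAP made up 45.8, 49.9 and 49.2% of the ATG8 sum in control replicates 1 to 3 and 82.7, 80.5 and 82.3% in shFAM111B replicates 1 to 3, whereas MAP1LC3B went from 25.1% to 8.24% on average. These shares are set within a library and do not move when all its TPM are divided by a common factor, although quantile normalisation can move them.

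**Figure D2:**
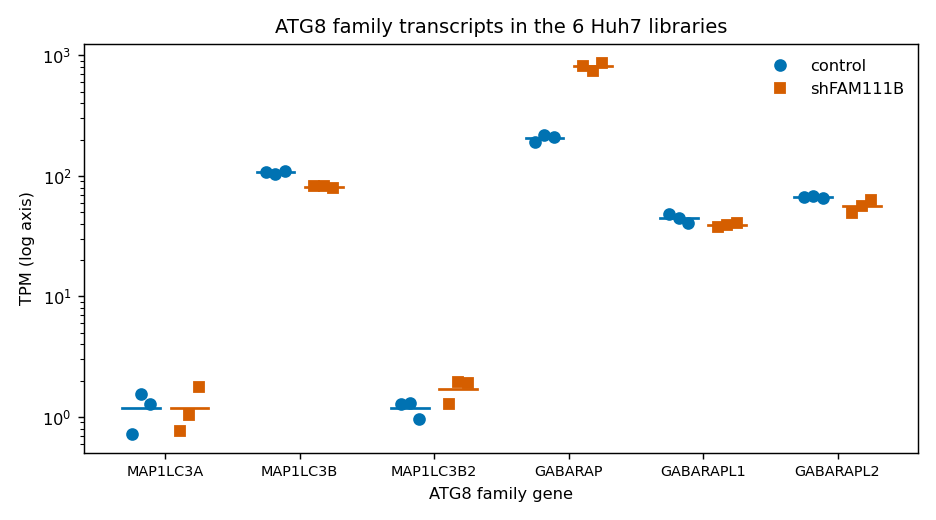
TPM of the 6 ATG8 family genes (y axis, log scale) in the 3 control (circles) and 3 shFAM111B (squares) libraries, with a line at each group mean. GABARAP went from 190.6 to 219.8 TPM in control libraries to 744 to 872 TPM in shFAM111B libraries, while MAP1LC3B lay lower in shFAM111B libraries and the low LC3 genes overlapped.

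In the ULK1 initiation complex, both regulatory scaffold genes fell while ATG101 rose. Of 4 tested genes, 3 were lower and 1 was higher. This and the stage counts that follow stand beside 50.9% lower and 21.1% higher among all tested genes, and with so few genes a stage they are descriptions only. ATG13, the adaptor that links the kinase to its scaffold, had 30.4, 42.5 and 32.3 TPM in control libraries and 16.0, 15.2 and 14.3 TPM in shFAM111B libraries. Control replicate 2 was the highest, and the groups stood well apart. Its log2 fold change was -1.15 (SE 0.129, limma adjusted p = 0.000172), negative under every scaling (-1.27 to -0.61) and -0.52 with the length trend removed. ATG101, which binds and stabilises ATG13, had 56.4, 57.9 and 72.4 TPM in control and 78.8, 87.5 and 88.6 TPM in shFAM111B libraries. All shFAM111B libraries were above all control libraries, and the log2 fold change was 0.45 (SE 0.104, limma adjusted p = 0.00621), positive under every scaling, although with the length trend removed it was 0.21 and no longer called (limma adjusted p = 0.121).

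RB1CC1, the large scaffold on which the complex assembles, had 9.02, 10.2 and 8.83 TPM in control libraries and 1.21, 1.57 and 6.54 TPM in shFAM111B libraries. The shFAM111B libraries disagreed, with replicate 3 far above the other two, so the log2 fold change of -1.56 (SE 0.437, limma adjusted p = 0.0148) carried a wide 95% confidence interval of -2.60 to -0.52, and without shFAM111B replicate 3 it was -2.11. The fall was not called under 2 scalings, at -1.14 and -1.03, nor with the length trend removed, at -0.73. ULK1, the kinase itself, had 22.0, 21.3 and 25.8 TPM in control and 20.3, 16.6 and 19.2 TPM in shFAM111B libraries. Its groups came close without overlapping, and the log2 fold change of -0.28 (SE 0.106, limma adjusted p = 0.0451) was smaller than the fall of the median tested gene. The call on ULK1 was lost without control replicate 1 or 3 (limma adjusted p = 0.0706 and 0.133) and without shFAM111B replicate 2 or 3 (0.122 and 0.0652), its direction flipped under 4 scalings, up to 0.25, and with the length trend removed it was called higher at 0.45.

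Within the class III PI3-kinase complex, the subunits that direct the kinase to autophagosomes or endosomes fell, whereas the lipid kinase PIK3C3 and its anchor PIK3R4 were not called lower. Of 7 genes, 5 were lower, 1 was higher and 1 was not called. PIK3C3, the catalytic subunit that makes PI3P, had 10.6, 10.4 and 11.9 TPM in control libraries and 15.8, 9.69 and 14.3 TPM in shFAM111B libraries. Replicates 1 and 3 of the shFAM111B cells were above every control library and replicate 2 below them all. The log2 fold change of PIK3C3 was 0.23 (SE 0.172, limma adjusted p = 0.261) with a 95% confidence interval of -0.18 to 0.64, and without shFAM111B replicate 2 it was 0.43 (limma adjusted p = 0.0104). PIK3C3 was called higher under 4 of the 5 scalings, at 0.61 to 0.76 (limma adjusted p = 0.00551 to 0.0149), and at 1.23 with the length trend removed (limma adjusted p = 0.000571). PIK3R4 (VPS15), the regulatory kinase that holds PIK3C3 in place, had 16.9, 20.1 and 22.6 TPM in control and 29.4, 33.1 and 22.3 TPM in shFAM111B libraries. Its groups overlapped, since shFAM111B replicate 3 lay below control replicate 3. The log2 fold change was 0.48 (SE 0.163, limma adjusted p = 0.0319), and the call was lost without control replicate 1 or 2 (limma adjusted p = 0.102 and 0.0687) and without shFAM111B replicate 1 or 2 (0.0853 and 0.0928). PIK3R4 was called higher under 4 scalings, at 0.88 to 1.01, and at 1.18 with the length trend removed, and it was not called at 0.35 under the fifth.

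NRBF2, a subunit of the autophagy-specific complex that binds through ATG14, had 29.6, 29.9 and 28.3 TPM in control replicates and 12.4, 14.3 and 12.4 TPM in shFAM111B replicates. The groups stood apart with close replicates, and the log2 fold change was -1.11 (SE 0.0781, limma adjusted p = 1.9e-05), or -1.07 with the length trend removed. ATG14, which targets the complex to the endoplasmic reticulum, went from 12.2, 13.3 and 11.3 TPM to 4.97, 5.71 and 5.76 TPM, a log2 fold change of -1.03 (SE 0.101, limma adjusted p = 8.49e-05). UVRAG, which replaces ATG14 in the endosomal form of the complex, went from 4.52, 5.20 and 5.76 TPM to 2.35, 2.11 and 1.62 TPM, a log2 fold change of -1.03 (SE 0.144, limma adjusted p = 0.000538). BECN1 (Beclin 1), the subunit common to both forms, had 59.3, 56.3 and 58.4 TPM in control and 40.1, 43.9 and 39.8 TPM in shFAM111B libraries, and its log2 fold change of -0.48 (SE 0.0591, limma adjusted p = 0.00027) flipped to 0.052 under the scaling that raised it most. BECN1 shares 300 exon bases on the opposite strand with PSME3, which went from 123 to 41.3 TPM on average, and whether the counting used strand is not given in the sources used here. AMBRA1, which promotes Beclin 1 activity, had a log2 fold change of -0.64 (SE 0.121, limma adjusted p = 0.00249).

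Among the PI3P readers, lipid transfer and membrane supply genes, 1 gene of each of 3 paralog pairs fell while the other did not pass the test on the deposited scale. Of 8 genes, 5 were lower and 0 were higher by limma, also at an unadjusted p under 0.05. WIPI2, the reader that recruits ATG16L1, had 55.6, 54.6 and 53.2 TPM in control libraries and 35.8, 32.9 and 34.6 TPM in shFAM111B libraries, with tight and separate groups and a log2 fold change of -0.65 (SE 0.0555, limma adjusted p = 4.55e-05). It was -0.091 and not called with the length trend removed (limma adjusted p = 0.19). WIPI1, its closest relative, had a log2 fold change of 0.24 (SE 0.103, limma adjusted p = 0.0684) with overlapping groups, and was called higher under 4 scalings and with the length trend removed (0.30, limma adjusted p = 0.0375). WDR45B (WIPI3) fell from 59.6, 60.1 and 58.7 TPM to 29.2, 29.5 and 27.7 TPM, at -1.02 (SE 0.0525, limma adjusted p = 6e-06), and WDR45 (WIPI4) had 72.8, 72.2 and 70.6 TPM in control and 73.0, 61.4 and 65.6 TPM in shFAM111B libraries, at -0.11 (SE 0.0702, limma adjusted p = 0.195). ATG2B, among the bridge-like proteins that carry lipid into the growing membrane, went from 2.62, 2.21 and 2.47 TPM to 0.70, 0.66 and 0.56 TPM, a log2 fold change of -1.07 (SE 0.129, limma adjusted p = 0.000253). It passed the filter only through its control libraries, and with the length trend removed it was -0.10. ATG2A, the paralog, had 12.6, 11.1 and 14.1 TPM in control and 13.7, 14.2 and 18.4 TPM in shFAM111B libraries, with overlapping groups, at 0.27 (SE 0.135, limma adjusted p = 0.11). ATG2A was likewise called higher under 4 scalings and with the length trend removed (1.12, limma adjusted p = 0.000274). ATG9A, the scramblase of the donor vesicles, changed by -0.82 (SE 0.103, limma adjusted p = 0.000307), and 38.8% of its exon bases overlap AC068946.2 on the same strand. With the length trend removed ATG9A was -0.22 and not called (limma adjusted p = 0.0988). VMP1, an endoplasmic reticulum scramblase, changed by -0.36 (SE 0.12, limma adjusted p = 0.0303) and lost the call in 4 of the 6 fits that left out 1 library, between -0.48 and -0.24, and under the scaling that raised it most it flipped to 0.17.

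In the conjugation systems, 7 of 10 genes were lower and 0 were higher by limma, also at an unadjusted p under 0.05, and none reached a 2-fold change on the log2(TPM + 1) scale. With the length trend removed 0 of the 10 were called lower and 1, ATG3, was called higher (0.37, limma adjusted p = 0.00345). ATG16L1, which places the ATG12-ATG5 conjugate on the membrane, had 20.0, 17.9 and 22.4 TPM in control libraries and 9.77, 9.76 and 13.1 TPM in shFAM111B libraries. The groups were separate and the log2 fold change was -0.83 (SE 0.136, limma adjusted p = 0.00113), the largest fall of the 10 on log2(TPM + 1), and -0.20 and not called when the length trend was removed. ATG5, which carries ATG12, had 24.4, 25.5 and 23.6 TPM in control and 18.4, 22.6 and 20.4 TPM in shFAM111B libraries, so that its groups were close. Its log2 fold change of -0.25 (SE 0.0874, limma adjusted p = 0.0332) was called in the full set but lost without control replicates 1 to 3 (limma adjusted p = 0.0756, 0.102 and 0.0534) and without shFAM111B replicate 1 or 3 (0.0998 and 0.0648), and it turned positive under 4 scalings. ATG12, the ubiquitin-like modifier itself, fell from 37.6, 30.7 and 33.6 TPM to 17.6, 22.3 and 20.6 TPM, at -0.73 (SE 0.11, limma adjusted p = 0.000782). ATG7, the activating enzyme shared by both reactions, had 19.1, 14.8 and 12.2 TPM in control and 11.7, 8.08 and 7.86 TPM in shFAM111B libraries, with shFAM111B replicate 1 just below the lowest control library. Its log2 fold change was -0.68 (SE 0.196, limma adjusted p = 0.0164), lost without control replicate 1 (adjusted p = 0.0505, limma) or shFAM111B replicate 2 (0.0512), and 0.052 with the length trend removed. ATG7 shares 1596 exon bases on the opposite strand with VGLL4, which went from 11.0 to 5.54 TPM on average, so its values are uncertain. ATG3, the enzyme that passes ATG8 proteins to lipid, had 77.9, 72.1 and 68.0 TPM in control and 74.1, 76.6 and 84.0 TPM in shFAM111B libraries and was not called, at 0.11 (SE 0.0723, limma adjusted p = 0.224). ATG10, which passes ATG12 to ATG5, had 9.73, 20.8 and 8.89 TPM in control and 9.99, 9.33 and 4.59 TPM in shFAM111B libraries, a spread too wide for a call, at -0.62 (SE 0.372, limma adjusted p = 0.171). ATG10 shares 374 exon bases on the opposite strand with the ribosomal protein gene RPS23, at mean levels of 2478 and 2546 TPM, so its values are uncertain.

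The ATG4 proteases, which cut the ATG8 precursors shown above and later release ATG8 from lipid, fell in 3 of 4 cases. ATG4B, the main protease for LC3, changed by -0.51 (SE 0.0744, limma adjusted p = 0.000677), from 62.7 ± 4.77 TPM to 43.8 ± 2.47 TPM (SD, n = 3). ATG4A, which prefers GABARAP-type substrates, changed by -0.56 (SE 0.118, limma adjusted p = 0.00392), and ATG4C by -0.77 (SE 0.237, limma adjusted p = 0.0221). The ATG4C call was lost without shFAM111B replicate 2 or 3, and its fold changes lay between -0.91 and -0.50 when each library was left out. ATG4D had 17.5, 17.6 and 21.0 TPM in control and 19.2, 21.0 and 26.4 TPM in shFAM111B libraries, and its log2 fold change of 0.23 (SE 0.132, limma adjusted p = 0.157) did not pass, whereas it was called higher under 4 scalings. Direction depended on the scaling for ATG4B, which ranged over -0.63 to 0.027. ATG4A (up to -0.031) and ATG4C (up to -0.24) stayed negative but kept the lower call under only 1 of the 5 scalings, and both lost it with the length trend removed (limma adjusted p = 0.0552 and 0.134). In mean TPM the ratio of ATG4C was 0.482, below the 0.541 of ATG16L1.

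The fusion factors and accessory proteins were the group in which every gene was called lower, 6 of 6, and 4 of the 6 fell by at least 2-fold on the log2(TPM + 1) scale. The group joins STX17, EPG5 and TECPR1, which act at fusion with lysosomes, to the accessory genes DRAM1, EI24 and DEPP1. Among the fusion genes only STX17 stayed lower with the length trend removed. By limma 0 were higher, also at an unadjusted p under 0.05. STX17, the SNARE that closed autophagosomes acquire before they meet lysosomes, had 12.2, 10.2 and 10.3 TPM in control libraries and 2.87, 2.91 and 3.01 TPM in shFAM111B libraries. Its shFAM111B libraries lay close together, between 2.87 and 3.01 TPM, and far below the controls, and its log2 fold change of -1.60 (SE 0.106, limma adjusted p = 1.49e-05) was the lowest among the 41 members on log2(TPM + 1). In mean TPM the ratio was 0.269 for STX17 and 0.263 for ATG2B. It ranged over -1.70 to -1.06 across scalings and was -1.29 with the length trend removed. DRAM1, a lysosomal membrane protein induced by p53, had 23.6, 23.5 and 22.0 TPM in control and 9.01, 8.23 and 8.03 TPM in shFAM111B libraries, a log2 fold change of -1.35 (SE 0.0775, limma adjusted p = 8.64e-06). EI24 (EPG4), an endoplasmic reticulum protein needed for autophagy of protein aggregates, had 64.1, 62.2 and 64.5 TPM in control and 29.9, 28.1 and 27.9 TPM in shFAM111B libraries, at -1.13 (SE 0.0538, limma adjusted p = 4.77e-06). DEPP1, a FOXO target and regulator of autophagy, had 20.1, 18.8 and 21.5 TPM in control and 7.94, 9.22 and 9.72 TPM in shFAM111B libraries, at -1.09 (SE 0.0981, limma adjusted p = 5.82e-05). For each of these 4 genes the groups stood apart, the call held under every scaling, and the length trend left a fall of -0.83 for DRAM1, -0.94 for EI24 and -0.94 for DEPP1. DEPP1 shares 695 exon bases on the opposite strand with RASSF4, which went from 13.6 to 19.2 TPM on average.

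EPG5, a tether between autophagosomes and late endosomes or lysosomes, went from 2.58, 2.64 and 2.74 TPM to 1.51, 1.35 and 1.31 TPM, a log2 fold change of -0.61 (SE 0.117, limma adjusted p = 0.00255). TECPR1, which joins the ATG12-ATG5 conjugate at the lysosome, changed by -0.44 (SE 0.158, limma adjusted p = 0.0377), and the call was lost in 5 of the 6 fits that left out 1 library, with fold changes between -0.58 and -0.29. With the trend over length and expression removed both were called higher, at 0.35 for EPG5 and 0.42 for TECPR1. TECPR1 was also positive under 2 scalings, up to 0.088.

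**Figure D3:**
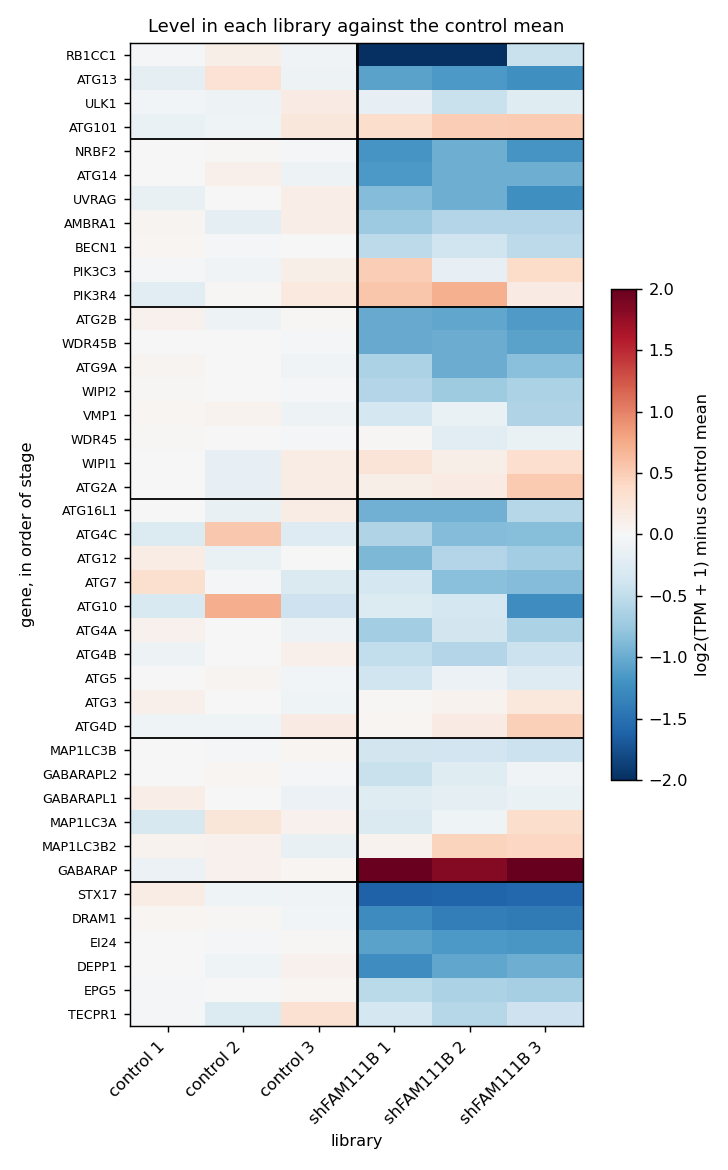
Level of each tested autophagosome gene (rows, grouped by stage) in each of the 6 libraries (columns), as log2(TPM + 1) minus the control mean, with red above and blue below it and the colour scale limited to 2 in either direction. RB1CC1 is dark blue in shFAM111B replicates 1 and 2 only, ATG10 varies among controls, and GABARAP is red in all 3 shFAM111B libraries.

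Summed levels moved by different amounts from stage to stage, with no test of the difference. The 6 fusion factors and accessory proteins went from 130.3 ± 4.34 to 57.3 ± 1.32 TPM (SD, n = 3), a ratio of 0.44. The class III PI3-kinase genes went from 143 ± 3.15 to 108 ± 6.39 TPM, the membrane supply genes from 313 ± 5.49 to 236 ± 7.72 TPM and the conjugation genes from 276 ± 4.95 to 222 ± 9.03 TPM (SD, n = 3), ratios of 0.754, 0.755 and 0.803. The initiation genes went from 129.8 ± 10.7 to 122 ± 6.18 TPM (SD, n = 3), with ATG101 up and ATG13 down within the sum. All 42 genes summed to 1421 ± 15 TPM in control and 1736 ± 68.2 TPM in shFAM111B cells, and without GABARAP to 1213 ± 1.71 and 924 ± 10.5 TPM (SD, n = 3). The median log2 fold changes were -1.11 for the fusion and accessory genes, -0.72 for initiation, -0.64 for the PI3-kinase complex, -0.59 for conjugation, -0.50 for membrane supply and -0.093 for the ATG8 family, beside -0.36 for all tested genes. Of these, the fusion and accessory median lay below that of all tested genes under every scaling and with the length trend removed, and the ATG8 median lay above it under every scaling but not with the length trend removed, at -0.069 against -0.056. Within the fusion and accessory group, removal of the length trend left 4 genes lower and 2 higher, the fusion genes EPG5 and TECPR1.

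**Figure D4:**
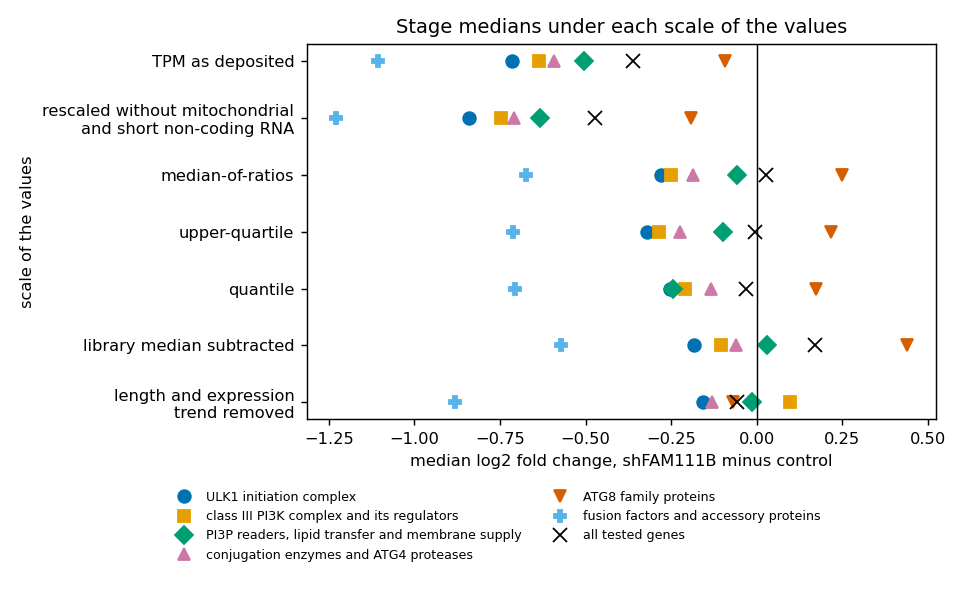
Median log2 fold change of each stage and of all tested genes (x axis, shFAM111B minus control) under the deposited TPM scale, 5 other scalings and removal of the trend with length and expression (y axis). The fusion factors and accessory proteins hold the lowest median in every row, from -1.23 to -0.57, while the median of all tested genes moves between -0.47 and 0.17.

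Ratios of partner or paralogous genes within a library do not change when all its TPM are divided by a common factor, although quantile normalisation can change them. Of 14 such pairs, which were chosen with the values known and serve as a description, 12 had groups that did not overlap, and no test is given for them. Taken singly, 75.2% of all tested genes did not overlap, and the share among other gene pairs was not counted. GABARAP over MAP1LC3B went from 1.93 ± 0.17 to 9.98 ± 0.961 (SD, n = 3). ATG101 over ATG13, which bind each other, went from 1.82 ± 0.442 to 5.64 ± 0.658, and PIK3R4 over ATG14, in the same kinase complex, from 1.63 ± 0.324 to 5.20 ± 1.15 (SD, n = 3). ATG2A over ATG2B went from 5.17 ± 0.462 to 24.6 ± 7.12, WDR45 over WDR45B from 1.21 ± 0.0115 to 2.32 ± 0.214 and WIPI1 over WIPI2 from 0.351 ± 0.0459 to 0.661 ± 0.0374 (SD, n = 3), so in all 3 pairs the first paralog gained on the other, although ATG2B lay below the 1 TPM filter value in every shFAM111B library. PIK3C3 over BECN1 went from 0.189 ± 0.0131 to 0.325 ± 0.0916 and ATG16L1 over ATG5 from 0.822 ± 0.123 to 0.535 ± 0.105 (SD, n = 3). ATG14 over UVRAG and GABARAPL2 over MAP1LC3B overlapped between the groups. The pairs also differ in transcript length, and the part of that in the ratios was not tested.

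**Figure D5:**
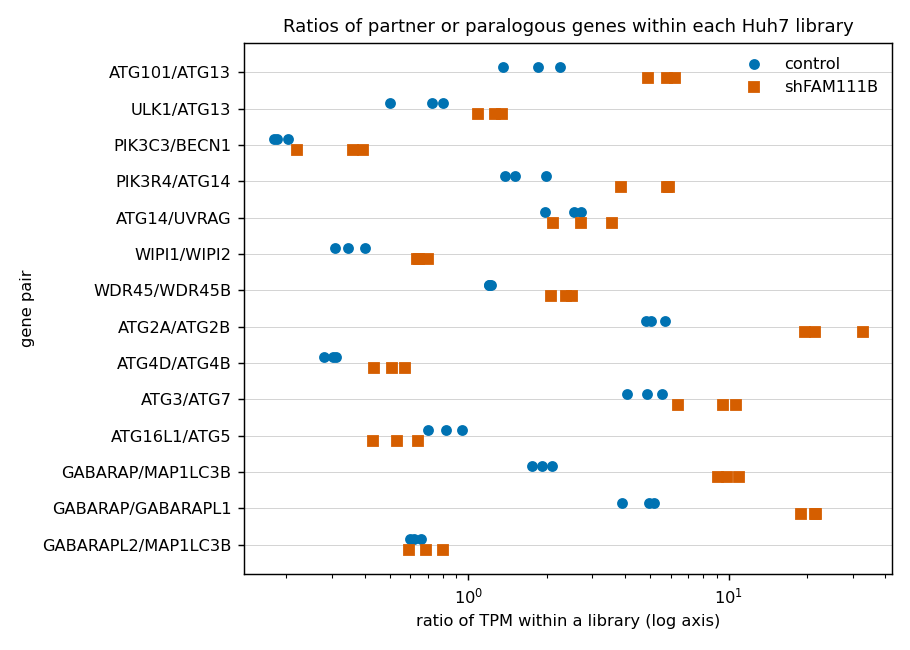
Ratio of the TPM of 14 gene pairs within each library (x axis, log scale) for the 3 control (circles) and 3 shFAM111B (squares) libraries. GABARAP over MAP1LC3B lies between 1.76 and 2.10 in control and between 9.07 and 11.0 in shFAM111B libraries, and only ATG14 over UVRAG and GABARAPL2 over MAP1LC3B overlap between the groups.

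A list of 59 further autophagy genes held receptors, fusion factors, upstream kinases and transcription factors, and modulators and paralogs. Of the 56 tested, 40 (71.4%) were lower, 7 (12.5%) higher and 9 not called, beside 50.9% and 21.1% of all tested genes. Under every one of the 5 scalings 23 of the 40 stayed lower and 5 of the 7 stayed higher. The same share over all tested genes was not counted. With the length trend removed 20 were lower and 15 higher, where 4994 and 4138 of 14263 tested genes were. The median longest transcript was 4386 nt in this list and 3210 nt among all tested genes. Of the 15 cargo and endoplasmic reticulum receptors, 12 (80.0%) were lower and 1 (TEX264, 6.67%) was higher. NCOA4, the receptor that delivers ferritin to autophagosomes, had 125, 121 and 118 TPM in control libraries and 20.9, 21.4 and 20.8 TPM in shFAM111B libraries. This was a wide gap with close replicates, a log2 fold change of -2.47 (SE 0.05, limma adjusted p = 1.08e-06), which ranged over -2.60 to -1.94 across scalings. STBD1, a glycogen-binding receptor, changed by -1.46 (SE 0.0562, limma adjusted p = 2.95e-06), and TAX1BP1, a receptor for ubiquitinated cargo, by -1.23 (SE 0.0541, limma adjusted p = 3.91e-06). SQSTM1 (p62), which binds ubiquitinated cargo and LC3, had 539.7, 530.0 and 581 TPM in control and 385, 387 and 392 TPM in shFAM111B libraries, a log2 fold change of -0.50 (SE 0.0468, limma adjusted p = 6.76e-05) that flipped to 0.03 under the scaling that raised it most. RETREG1 (FAM134B), an endoplasmic reticulum receptor, was at 1.55, 1.92 and 13.5 TPM in shFAM111B replicates 1 to 3 against 0.95, 0.89 and 1.59 TPM in control replicates, so 1 library alone stood out, and it was not called, at 1.17 (SE 0.633, limma adjusted p = 0.137).

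Of the 13 HOPS tether, SNARE and RAB7 genes, 8 (61.5%) were lower and 4 (30.8%) higher (VAMP8, VPS11, VPS18 and RILP), near the shares of all tested genes. VAMP8, the lysosomal SNARE that pairs with STX17, went from 83.7, 81.0 and 83.4 TPM to 157, 134 and 164 TPM, a log2 fold change of 0.87 (SE 0.0789, limma adjusted p = 6.11e-05), while STX17 fell as given above. With the length trend removed VAMP8 was 0.16 and not called (limma adjusted p = 0.128). RAB7A, the GTPase of late endosomes, went from 218, 209.6 and 209 TPM to 97.7, 101 and 93.1 TPM, at -1.12 (SE 0.0477, limma adjusted p = 3.61e-06), and YKT6, a SNARE that can act in place of STX17, changed by -0.64 (SE 0.0603, limma adjusted p = 7.14e-05). Of the 13 tested upstream kinases and transcription factors, 9 were lower and 2 higher, MLST8 and TFEB, beside the same shares of all tested genes. TFEB passed the filter only through its shFAM111B libraries, and PRKAA2, among the 9, only through its control libraries. PRKAA1, a catalytic subunit of the energy sensor AMPK that activates ULK1, had 99.3, 80.7 and 76.0 TPM in control and 15.2, 14.6 and 15.9 TPM in shFAM111B libraries, at -2.40 (SE 0.104, limma adjusted p = 3.78e-06). FOXO1 changed by -1.80 (SE 0.125, limma adjusted p = 1.79e-05) and TFE3 by -1.02 (SE 0.057, limma adjusted p = 7.88e-06), and both are transcription factors of autophagy and lysosome genes. Of the 15 tested modulators and paralogs, 11 were lower and 0 higher by limma, also at an unadjusted p under 0.05, with the smallest p for MTMR3, a PI3P phosphatase (-1.58 (SE 0.102, limma adjusted p = 1.34e-05)), SMCR8, a partner of C9orf72 (-1.39 (SE 0.0951, limma adjusted p = 1.69e-05)), and TBC1D14, which restrains autophagosome formation (-1.03 (SE 0.0755, limma adjusted p = 2.25e-05)). C9orf72, also among the 11, passed the filter only through its control libraries. TEX264, RETREG1, PRKAA2, C9orf72, VPS11, VPS18, RILP, MLST8 and TFEB are outside the rule for named genes and were singled out after their values were seen.

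TFE3 and its relative TFEB bind the letters CACGTG, which were searched in RefSeq promoters (GRCh38.p14, 250 bases before to 50 after each gene start). The word reads the same on both strands. It was in 3 of the 39 promoters matched to 35 of the 42 genes, and in 7.26% of all 35116 promoters. The 3 windows are shown, with the match in capitals, since they are the member promoters with such a match.
ATG14, chr14:55411836-55411861, minus strand: aacaaaatccCACGTGactggctctc
ATG3, chr3:112561965-112561990, minus strand: tttctcacgtCACGTGccgggagagt
NRBF2, chr10:63133078-63133097, plus strand: tcctCACGTGacttcagtgt
The matches start 21 bases before the gene start in ATG14, 18 bases in ATG3 and 246 bases in NRBF2, and the ATG3 promoter holds 2. ATG14 and NRBF2 were lower in shFAM111B cells, and ATG3 was not called. A match of letters in these windows is a description and not a bound site.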

How the data were processed

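RNA-seq values of 6 Huh7 libraries, 3 control and 3 shFAM111B, were used as labelled. Hep3B cells were not analysed here. For each library and as group means the authors deposited TPM. They deposited the results of their own comparison too, among them a fold change (ratio), a log2 fold change and p-values, and none of these was used. Per the labels, the submitters' processing notes name RSEM, DESeq2 and hg38, and their versions are not given in the sources used here. The study names a TruSeq RNA kit and the labels a stranded mRNA kit with poly(A) selection. TPM hold no sequencing depth, so the depth behind the values is unknown and counting error could not be estimated.

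A gene needed 1 TPM or more in 3 or more libraries (14394 of 60666 did) and was tested on log2(TPM + 1), a scale that understates changes of low genes, with limma 3.58.1 in R 4.3.3 (lmFit and eBayes with a trend, no covariates, Benjamini-Hochberg adjustment over all tested genes). A call needed an adjusted p under 0.05. The script was tested on simulated data with equal numbers of rises and falls in a small part of the genes. Those data held no shift in library composition, so they do not bear on the choice of scaling. No library pair had more than 0.889% of tested genes at identical TPM. Lengths, positions, overlaps and coding sequences came from GENCODE 29 (GRCh38), which held 58420 of the 60666 identifiers and all 42 members, and promoters came from RefSeq (GRCh38.p14). A length is that of the longest annotated transcript, and the length and expression trend was removed by loess (span 0.75) over 14263 genes. Exons of 22 members overlap another gene. Tables and figures were made with Python 3.11.15, pandas 2.3.3, numpy 2.4.6, scipy 1.17.1 and matplotlib 3.10.9.

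The 42 members, the lists and the tests were chosen with earlier results of these data known. By rule, values by library were given for the ATG8 family, ULK1, PIK3C3, WIPI2, ATG5, ATG7, ATG16L1, STX17, DRAM1, EI24, DEPP1 and the called members with the 5 largest rises (3 were called) and the 8 largest falls, and for SQSTM1 and up to 3 called genes with the smallest p of each further list. Other members were given by fold change or value. Alternatives were 5 scalings, a pseudocount of 0.1, no filter, removal of the trend, no eBayes trend, a test against a 1.2-fold change, the 2-fold threshold of the study, a replicate block and leaving out each library.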

Additional observations from a re-analysis of the deposited data

How the results depend on the processing

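Of the 28 members called lower and 3 called higher, 23 of the 31 calls held in every fit that left out 1 library, and 7 of the lower calls were lost in at least 1. How many calls among all tested genes held in this way was not counted. Leaving out 1 library gave 2 to 4 higher and 22 to 25 lower members. The shares of all tested genes in these fits were 19.3 to 20.9% higher and 48.2 to 50.5% lower. Median-of-ratios scaling gave 11 higher and 16 lower members, upper-quartile scaling 11 and 16, subtraction of each library's median 14 and 11, quantile normalisation 9 and 18, and removal of the length and expression trend 9 and 10. A test against a 1.2-fold change gave 1 higher member (and 21 lower), and the 2-fold threshold gave 1 higher and 11 lower. Among all tested genes, 14.8% were higher and 41.6% lower against the 1.2-fold change, and 6.82% and 23.7% at the 2-fold threshold. Across all tested genes, calls without a filter on TPM were 10.3% higher and 26.1% lower of 29373 genes. In that fit 2 of the 42 members were higher and 22 lower.

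With median-of-ratios scaling the median log2 fold change was -0.16 for the 41 members, -0.28 for initiation, -0.25 for the PI3-kinase complex, -0.057 for membrane supply, -0.19 for conjugation, 0.25 for the ATG8 family and -0.67 for fusion and accessory genes. With upper-quartile scaling the median log2 fold change was -0.20 for the 41 members, -0.32 for initiation, -0.29 for the PI3-kinase complex, -0.10 for membrane supply, -0.22 for conjugation, 0.22 for the ATG8 family and -0.71 for fusion and accessory genes. With subtraction of each library's median the median log2 fold change was -0.031 for the 41 members, -0.18 for initiation, -0.10 for the PI3-kinase complex, 0.029 for membrane supply, -0.06 for conjugation, 0.44 for the ATG8 family and -0.57 for fusion and accessory genes. With quantile normalisation the median log2 fold change was -0.16 for the 41 members, -0.25 for initiation, -0.21 for the PI3-kinase complex, -0.24 for membrane supply, -0.13 for conjugation, 0.17 for the ATG8 family and -0.71 for fusion and accessory genes. With rescaling without mitochondrial-chromosome and short non-coding RNA genes the median log2 fold change was -0.68 for the 41 members, -0.75 for the PI3-kinase complex, -0.63 for membrane supply, -0.71 for conjugation and -1.23 for fusion and accessory genes. With removal of the length and expression trend the median log2 fold change was -0.10 for the 41 members, -0.16 for initiation, 0.10 for the PI3-kinase complex, -0.013 for membrane supply, -0.13 for conjugation and -0.88 for fusion and accessory genes. With a pseudocount of 0.1 the median log2 fold change was -0.63 for the 41 members, -0.74 for the PI3-kinase complex and -1.16 for fusion and accessory genes. With no filter on TPM the median log2 fold change was -0.28 for initiation. Of the genes with full values, ATG5 was at 0.18, GABARAPL1 was at 0.27, GABARAPL2 was at 0.20, MAP1LC3A was at 0.23, MAP1LC3B was at 0.052 and ULK1 was at 0.15 under median-of-ratios scaling. Of the genes with full values, ATG5 was at 0.14, GABARAPL1 was at 0.23, GABARAPL2 was at 0.16, MAP1LC3A was at 0.21, MAP1LC3B was at 0.012 and ULK1 was at 0.11 under upper-quartile scaling. Of the genes with full values, ATG5 was at 0.28, GABARAPL1 was at 0.35, GABARAPL2 was at 0.28, MAP1LC3A was at 0.53, MAP1LC3B was at 0.13 and ULK1 was at 0.25 under subtraction of each library's median. Of the genes with full values, ATG5 was at 0.21, GABARAPL1 was at 0.15, MAP1LC3A was at 0.19 and ULK1 was at 0.19 under quantile normalisation. Of the genes with full values, ATG5 was at 0.18, ATG7 was at 0.052, GABARAPL1 was at 0.19, MAP1LC3B2 was at -0.12 and ULK1 was at 0.45 under removal of the length and expression trend. When each library was left out, the median lay between -0.60 and -0.51 for the 41 members, between -0.73 and -0.57 for the PI3-kinase complex and between -0.67 and -0.50 for conjugation, and MAP1LC3A lay between -0.19 and 0.13. The cause of these shifts was not tested.

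Whether libraries of the same replicate number were paired is not given in the sources used here. The correlations of deviations between same-numbered libraries were 0.054, 0.035 and 0.091, and those between libraries of different number lay between -0.076 and 0.044. Values this small do not decide it. The deviations of shFAM111B replicates 1 and 3 correlated best with the control library of their own number, and those of replicate 2 best with control replicate 1 (0.044). With the replicate number as a block, 5 members were higher and 27 lower, and across all genes 3022 and 7198. PIK3R4 (limma adjusted p = 0.0549) and GABARAPL2 (limma adjusted p = 0.0502) lost their calls under the block, and WIPI1 (limma adjusted p = 0.0277), ATG2A (0.0462) and ATG4D (0.0435) became called higher.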
